A study of Mus musculus with 4 samples.

Results

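Immature neurons of the dentate lineage were selected from hippocampal single-cell libraries by the RNA of 3 genes of young neurons. A barcode, the tag that stands for 1 droplet and usually 1 cell, was selected when it had at least 200 detected genes and at least 5 UMIs of Igfbpl1, Sox11 and Neurod1 together, where a UMI is 1 counted RNA molecule. It could hold at most 2 UMIs of the division genes Top2a, Mki67, Ube2c, Pclaf and Cdk1, at most 2 of the Cajal-Retzius genes Ndnf, Lhx1 and Trp73, and at most 2 of the glial and vessel genes P2ry12, Cx3cr1, Mog, Pdgfra, Gja1 and Cldn5. In all, 120 of 6281 barcodes with at least 200 genes (1.91%) met the rule.

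New granule cells of the dentate gyrus are made throughout life in the mouse. Radial glia-like stem cells give rise to Eomes-positive intermediate progenitors, which leave the cell cycle as neuroblasts with Dcx, Neurod1 and, for a time, calretinin (Calb2). As they mature, granule neurons keep Prox1, lose Dcx and Calb2 and acquire calbindin (Calb1) and the proteins of glutamatergic synapses.

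The study compared mice with a duplication of the part of chromosome 10 that corresponds to human chromosome 21 with their wild-type littermates. Male mice were 3 months old on the C57BL/6J background. A pair of Dp(10)2Yey mice, hemizygous for the duplication and called Dp2Yey here, and a pair of wild-type (WT) mice gave 1 library each. Both hippocampi of a mouse were dissociated without sorting, on 2 consecutive days with 1 mouse of each genotype per day, and which libraries share a day was not given in the sources used here.

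The libraries held 3002546 UMIs in WT 1, 6848466 in WT 2, 5112759 in Dp2Yey 1 and 9612011 in Dp2Yey 2. The barcodes with at least 200 genes numbered 1022, 1686, 1355 and 2218 in the same order, which is kept for every set of 4 values from here on. Their median depths were 2075, 3690.5, 3402 and 3683.5 UMIs, so WT 1 was the shallowest library in both respects. Between libraries 8 pairs of barcodes had the same sequence, and none of the selected cells was among them.

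The selected cells numbered 20, 34, 25 and 41, with 77309, 185261, 147164 and 226237 UMIs summed over them. A cell held 542 to 27239 UMIs, with a median of 4268.5 UMIs and 1852.5 genes. Before the exclusions 150 barcodes reached 5 UMIs of the lineage genes, of which the division genes removed 19, the Cajal-Retzius genes 2 and the glial and vessel genes 13, with some removed by more than 1 set. Most cells lay well inside the rule, with a median of 22 UMIs of the lineage genes. Just inside the threshold, 5 cells held exactly 5 UMIs, and 10 barcodes that met the other conditions held 4 and fell just outside. The share of mitochondrial UMIs had a median of 3.66%, and 2 cells, 1 in each WT library, exceeded 20%. Scrublet, which calls droplets with 2 cells, marked 39 of the 6281 barcodes (0.621%), 1 of them a selected cell of Dp2Yey 1. All were kept.

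The 3 genes of the rule are given first as a description, since they chose the cells. Levels are given in CPM, the UMIs of a gene scaled by all UMIs of the selected cells of a library, so that 3 UMIs among the 77309 of WT 1 are 38.8 CPM. Sox11, a transcription factor of newborn neurons, had 2458, 1981, 3228 and 2648 CPM, against 25.7 to 45.9 CPM in all other barcodes. Igfbpl1, a secreted binding protein of the insulin-like growth factor family, had 1876, 1436, 1522 and 2086 CPM. Neurod1, a basic helix-loop-helix factor that drives granule cell differentiation, had 1164, 799, 1393 and 1171 CPM. Every library held all 3 genes, with the lowest value of each in WT 2.

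The 2 further markers of the label were not used by the rule and served to check it. Doublecortin (Dcx), a microtubule-binding protein of migrating neurons, had 414, 362, 516 and 499 CPM, against 10.4 to 15.9 CPM in the other barcodes. A Dcx UMI was seen in 90 of 120 cells (75%) at a median depth of 4268.5 UMIs, against 0.0381% of 2623 microglia at a median depth of 3637 UMIs. With every cell thinned to 2000 UMIs, which left out 12 selected cells and 702 microglia, the shares were 61.1% and 0.0521%. Calretinin (Calb2), a calcium-binding protein, had 1022, 416, 537 and 774 CPM, against 7.55 to 16.3 CPM elsewhere. A Calb2 UMI was seen in 60 cells (50.0%, microglia 0.114%), and in 45.4% of the thinned cells (microglia 0.104%). Both markers were thus present in every library at levels above the other barcodes. The cells without Calb2 were not all at an early step of the lineage, because 2 groups of cells with no Calb2 at all stood apart from the rest.

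**Figure D1:**
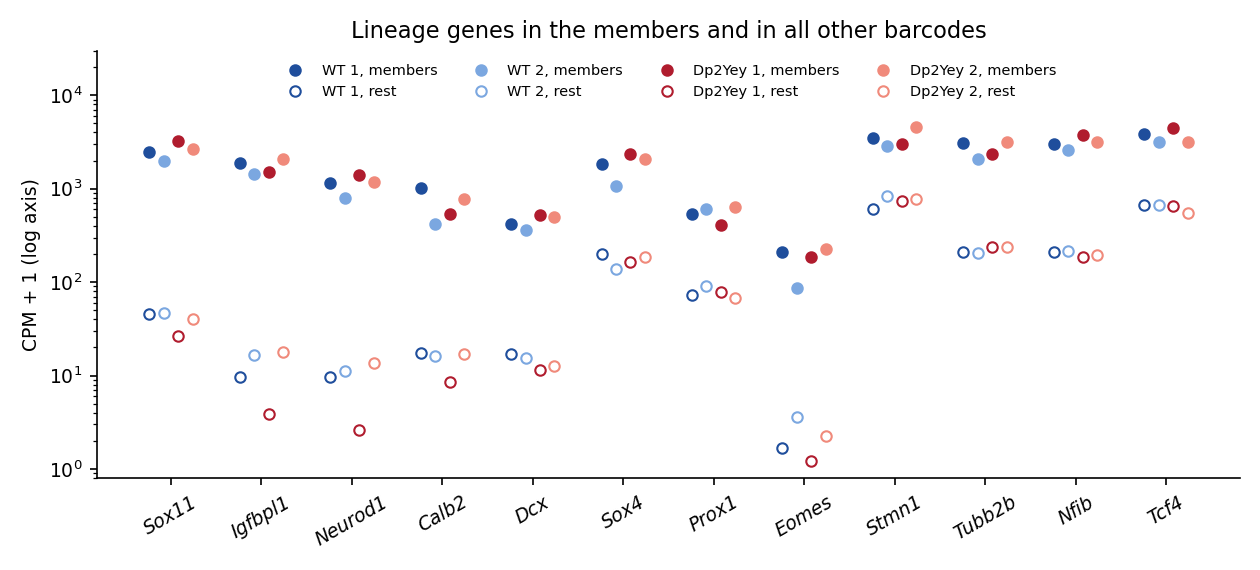
Levels of 12 lineage genes (CPM plus 1, log axis) in the selected cells (filled circles) and in all other barcodes with at least 200 genes (open circles), 1 circle per library. For Igfbpl1, Neurod1, Calb2 and Dcx every filled circle lies above every open one.

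The selected cells fell into 3 kinds, chosen after their values were seen. Cells with at least 8 UMIs over Dlx1, Dlx2, Dlx5, Dlx6, Dlx6os1, Sp8, Sp9 and Meis2, which encode transcription factors (Dlx6os1 a non-coding RNA) of forebrain GABAergic neurons, are called Dlx-positive. Cells with at least 20 UMIs over the synaptic genes Nrgn, Snap25 and Syt1 are called Nrgn-high. The remaining cells are those in neither kind. There were 21 Dlx-positive, 8 Nrgn-high and 91 remaining cells.

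Both kinds had clear edges. For the 3 synaptic genes the lowest Nrgn-high cell held 99 UMIs and the highest other cell 4. For the 8 Dlx-set genes the lowest Dlx-positive cell held 8 UMIs and the highest remaining cell 3, while 1 Nrgn-high cell also held 8, all of them Meis2, and was counted as Nrgn-high. No cell was therefore close to the synaptic threshold, and the Dlx threshold had 1 Dlx-positive cell on its edge, with the next at 11 UMIs. No cell with a UMI of Neurod1 or of Calb2 held a UMI of Dlx1, Dlx2, Dlx5, Dlx6 or Dlx6os1.

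**Figure D2:**
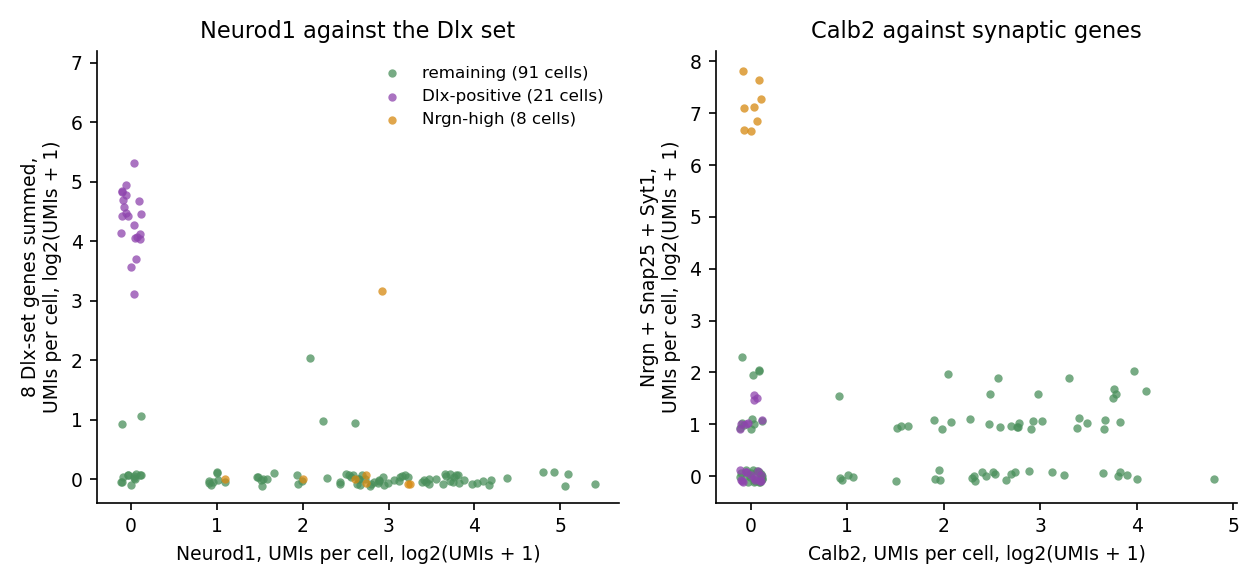
UMIs per cell on log2(UMIs + 1) axes for the 120 selected cells, with small random offsets: Neurod1 against the 8 Dlx-set genes (left) and Calb2 against Nrgn, Snap25 and Syt1 (right). The 21 Dlx-positive cells lie on the Neurod1 axis at 0, and the 8 Nrgn-high cells lie apart from the rest on the synaptic axis, without Calb2.

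The Dlx-positive cells went against the dentate label. They met the rule through Sox11, found in 21 of 21 cells, and Igfbpl1, found in 19, and 18 of them had Dcx. Neurod1 and Calb2 were each seen in 0 of 21 cells, which allows a share of cells with a UMI, though not of cells that express the gene, of up to 14.3%, at a pooled level under the 38.9 CPM that 3 counts would give. In the remaining cells Neurod1 had 664 UMIs in 77 cells and Calb2 had 410 UMIs in 60 cells. Prox1, the homeobox factor of granule cell identity, had 16 UMIs in 10 of the 21 Dlx-positive cells and 293 UMIs in 75 of the 91 remaining cells. The Dlx-positive cells thus had the markers of young neurons without those of the granule lineage, apart from Prox1.

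Genes outside the 8 that define them also separated the Dlx-positive cells, given here as a description in pooled UMIs. Gad2, an enzyme of GABA synthesis, had 36 UMIs in 14 Dlx-positive cells and 1 UMI in the remaining cells, and the vesicular GABA transporter Slc32a1 had 12 UMIs in 9 cells and none in the remaining ones. The presynaptic adhesion gene Nrxn3 had 69 UMIs in 19 cells, against 0 UMIs in the 91 remaining cells, for which 3 counts would be 6.94 CPM. The Rac activator Tiam2 had 38 UMIs against 1, and the actin regulator profilin 2 (Pfn2) 111 against 75. All of these were thus read more often in 21 cells than in the 91 others.

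Cyclin D2 (Ccnd2), which supports the division and late steps of neural progenitors, had 5215 CPM in the Dlx-positive cells and 942 CPM in the remaining ones. On the lower side stood further genes of dentate and cortical glutamatergic neurons: Bhlhe22 (0 UMIs against 150), Neurod2 (0 against 76), Neurod6 (0 against 73) and Emx1 (0 against 70). The guidance cue Sema3c had 0 UMIs against 122, the calmodulin-binding peptide Pcp4 0 against 437, and the inhibitor of helix-loop-helix factors Id2 2 against 332. The Dlx-positive cells made up 1 of 20 selected cells in WT 1, 8 of 34 in WT 2, 6 of 25 in Dp2Yey 1 and 6 of 41 in Dp2Yey 2, or 5%, 23.5%, 24.0% and 14.6%. The genotypes overlapped, and WT 1 was the lowest.

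The Nrgn-high cells lay at the other end. They were deep, with a median of 15384.5 UMIs against 4289 in the remaining cells, and held 5 to 12 UMIs of the lineage genes, with a median of 7 against 27. Neurod1 was found in 8 of 8 cells, with 44 UMIs, and Sox11 in 6. Igfbpl1, Calb2, Eomes and Sox4 were seen in 0 of 8 cells, which allows a share of cells with a UMI of up to 37.5%. Of genes that mark mature granule neurons, calbindin (Calb1, 60 UMIs) and the synaptic organizer C1ql3 (306 UMIs) were found in 8 of 8 cells, its relative C1ql2 (33 UMIs) in 7, the desmosomal gene Dsp (10 UMIs) in 4 and Prox1 (46 UMIs) in 7. The single Nrgn-high cell of Dp2Yey 1, the deepest with 27239 UMIs, had 0 UMIs of Prox1, C1ql2 and Dsp and 1 of Calb1, and was the cell with 8 UMIs of Meis2. In the 91 remaining cells Calb1 had 0 UMIs, which allows up to 3.30% of cells with a UMI, and C1ql3 had 2 UMIs in 2 cells. None of the Nrgn-high cells was called a doublet.

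There were 1, 5, 1 and 1 Nrgn-high cells in the 4 libraries, so 5 of the 8 came from WT 2. Because of their depth they held 12.3%, 37.6%, 18.5% and 8.95% of the UMIs of the selected cells. They held 771 of the 784 UMIs of Nrgn, the postsynaptic calmodulin-binding protein neurogranin. The level of Nrgn over all selected cells followed from them, with 970.1, 2667, 822 and 415 CPM and the highest value in WT 2.

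**Figure D3:**
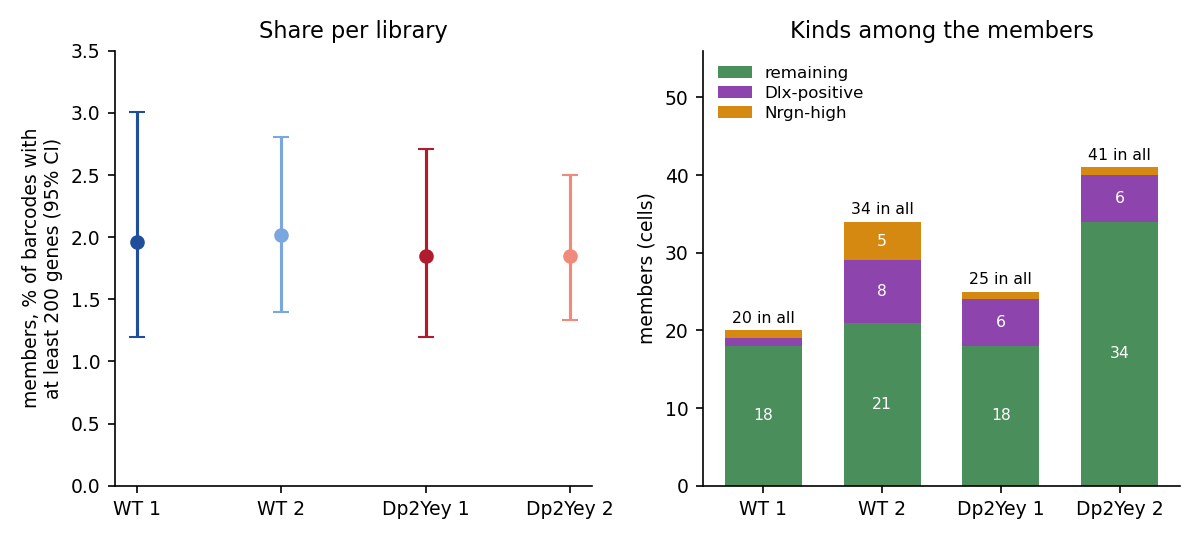
Left: selected cells as a percentage of barcodes with at least 200 genes in each library, with exact 95% binomial intervals. Right: the number of selected cells of each kind, with 5 of the 8 Nrgn-high cells in WT 2 and 1 of the 21 Dlx-positive cells in WT 1.

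Transcription factors of the lineage were read in every library. All 30 genes of a list of them had UMIs, with summed levels of 20037, 16771, 23396 and 21106 CPM. The nuclear factor I genes, which act in the differentiation of hippocampal neurons and glia, were present in nearly every cell: Nfib had 2975, 2596, 3785 and 3134 CPM, against 183 to 214 CPM elsewhere. Sox4, the close relative of Sox11, had 1824, 1069, 2338 and 2069 CPM, and 38.0% of microglia also had a Sox4 UMI, against 90.0% of the selected cells. Tcf4, a partner of basic helix-loop-helix factors, had 3881, 3136, 4430 and 3191 CPM. Nfib, Sox4 and Tcf4 each had their lowest value in WT 2.

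Prox1 had 530.3, 599, 408 and 632 CPM, against 66.8 to 90.1 CPM in the other barcodes. It was seen in 92 cells (76.7%, microglia 4.27%), and in 58.3% of the thinned cells (microglia 2.60%). Zbtb18, a transcriptional repressor needed for neurons to differentiate, had 867, 658, 781 and 756 CPM, 408.7 CPM in the mature neurons described below and 8 UMIs in the Dlx-positive cells. Myt1l, which represses non-neuronal programs, had 285, 383, 442 and 332 CPM. Prox1 and Zbtb18 did not separate the genotypes.

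Genes of microtubules and of the growth cone, which build the extending processes of young neurons, were all detected, with 30 genes in the list and summed levels of 38327, 32678, 34540 and 44498 CPM. The tubulin Tubb2b had 3053, 2084, 2372 and 3143 CPM, against 203 to 236 CPM elsewhere. Stathmin (Stmn1), which destabilizes microtubules, had 3454, 2872, 3044 and 4557 CPM, and its neuronal relative Stmn2 had 1022, 626, 802 and 1132 CPM. Thymosin beta 10 (Tmsb10), which binds actin monomers, had 2794, 2866, 2453 and 5428 CPM, and its level in the other barcodes was also highest in Dp2Yey 2, at 416 CPM. Of these, Tubb2b and Stmn1 were lower in the Nrgn-high cells, with 11 and 48 UMIs among 126727.

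Surface and guidance genes were read at lower levels, with 3376, 3314, 3527 and 3483 CPM summed over 26 genes. The adhesion molecule Ncam1 had 608, 561, 530 and 685 CPM, and the glycoprotein Cd24a had 453, 351, 415 and 323 CPM. Cd24a was seen in 83 cells (69.2%, microglia 0.229%), and in none of the 8 Nrgn-high cells. Sema3c had 272, 140.3, 143 and 239 CPM, with all of its 122 UMIs in remaining cells. Cd24a was thus shared by the Dlx-positive and the remaining cells, while Sema3c was read in the remaining cells alone.

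Some genes of neural stem cells were also present. Sox2, a factor of stem and progenitor cells, had 168, 91.8, 183 and 234 CPM and was seen in 46 cells (38.3%, microglia 0.610%), 28.7% after thinning (microglia 0.312%). The glutamate transporter Slc1a3 was seen in 56 cells (46.7%), but also in 31.4% of microglia, and after thinning in 34.3% and 20.9%. Thrsp, linked to lipid synthesis in stem cells, was seen in 16.7% of the selected cells and 17.3% of microglia, so its detection did not set these cells apart either. Of 12 genes of the radial glia-like list all had UMIs, with summed levels of 1099, 691, 1230 and 1193 CPM, while astrocytes had 10258 CPM.

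Intermediate progenitor genes were read in a part of the cells. Eomes, the T-box factor of intermediate progenitors, had 207, 86.4, 183 and 225 CPM. It was seen in 36 of 120 cells, 35 of them remaining cells, and in 17.6% of thinned cells, against 0 of 2623 microglia, which allows a share with a UMI of up to 0.114%. Insm1, a zinc finger factor of basal progenitors, was seen in 27 cells (22.5%), 7 of the 21 Dlx-positive and 20 of the 91 remaining cells, and in 9.26% of thinned cells, against 0 of 2623 microglia. Elavl2, an RNA-binding protein of neurons, had 349, 248, 401 and 340 CPM. Btg2 was seen in 49.2% of cells and 75% of microglia, and Rgs2 in 11.7% and 69.2%, so neither set these cells apart from microglia.

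The remaining cells were ordered by Eomes and Calb2 to see how they vary along the lineage, as a range and not as types. After thinning to 2000 UMIs, 80 cells were left, of which 10 had Eomes alone, 8 had both genes, 41 had Calb2 alone and 21 had neither. Each of these classes was found in every library, with 2, 2, 3 and 3 cells for Eomes alone and 7, 10, 7 and 17 for Calb2 alone. A class rests on detecting 1 UMI, so cells near that limit can fall in either.

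Genes of progenitors differed between the classes. Ccnd2 had 3.20 UMIs per cell with Eomes alone, 0.25 with both, 0.341 with Calb2 alone and 1.81 with neither. Sox2 had 1.30, 0.125, 0.171 and 0.524 UMIs per cell in the same order, and Sox9, a factor of stem cells and glia, 0.80, 0.25, 0.122 and 0.190. Ccnd2, Sox2 and Sox9 were thus highest in the cells with Eomes alone. The 8 cells with both genes held 2 UMIs of Ccnd2 and 1 of Sox2, too few to rank them against the cells with Calb2 alone.

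The granule factor Prox1 went the other way, with 0.50, 1.25, 2.05 and 0.714 UMIs per cell. Neurod2, a factor of later neuronal differentiation, was read in no cell with Eomes alone, and had 0.375, 0.293 and 0.286 UMIs per cell in the others. Neurod1 (3, 3.38, 3.20 and 2.38) and Dcx (1.30, 1.12, 1.12 and 1.05) differed little between the classes. These values rest on 8 to 41 cells and were not tested.

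**Figure D4:**
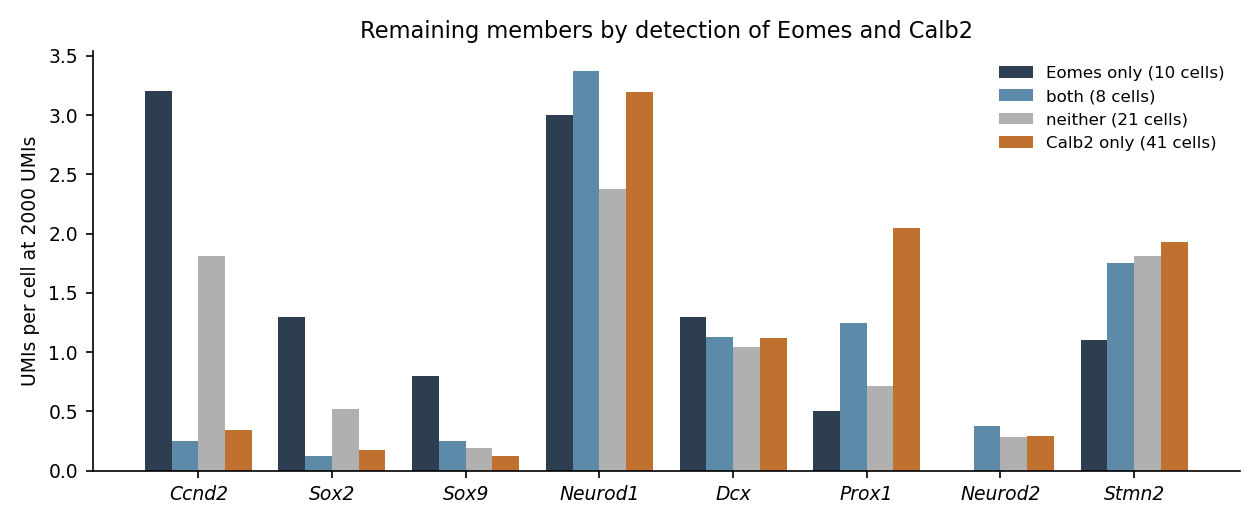
UMIs per cell of 8 genes in the 80 remaining cells thinned to 2000 UMIs, grouped by detection of Eomes and Calb2 (bars). Ccnd2 and Sox2 are highest with Eomes alone, Prox1 with Calb2 alone, and Neurod1 is between 2.38 and 3.38 in all 4 classes.

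Genes that set how a neuron responds to GABA were read next, a receptor subunit and a pair of chloride transporters. The GABA-A receptor subunit Gabra2 had 90.5, 146, 54.4 and 84.0 CPM, and was seen in 8 of 8 Nrgn-high cells and in 19 of the 91 remaining ones. The chloride exporter Slc12a5, which appears as neurons mature, had 29 UMIs in 7 Nrgn-high cells and 0 UMIs in the 91 remaining and 21 Dlx-positive cells. The importer Slc12a2 was seen in 18 cells (15%), and in 23.0% of microglia, with 17 UMIs in remaining cells, 1 in a Dlx-positive cell and 0 in the 8 Nrgn-high cells.

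Glutamatergic synapse genes showed the same split, with 3932, 8215, 4886 and 2886 CPM summed over 20 genes. Their pooled level was 18812 CPM in the Nrgn-high cells, 1719 CPM in the remaining cells and 921 CPM in the Dlx-positive cells. The list holds the 3 genes that define the Nrgn-high kind, and over its other 17 genes the levels were 9485 CPM, 1562 CPM and 778 CPM. The AMPA receptor subunit Gria2 was an exception, present in 76 of 91 remaining cells with 398 UMIs. The NMDA receptor subunit Grin2b was seen in 30 of the remaining cells with 50 UMIs, and in every Nrgn-high cell with 174.

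A description against other barcodes of the same libraries places the cells further. Ranked by the smallest log2 ratio over the libraries with 10 CPM added, the genes outside the rule highest against all other barcodes were Tubb3 (ratio 4.13), Calb2 (4.08), Ccnd2 (4.04), Dcx (3.92) and Elavl2 (3.65). Tubb3, the neuronal beta tubulin, had 763, 691, 693 and 906 CPM in the selected cells and 28.6 to 32.9 CPM elsewhere. The unnamed RNA genes Gm26735 and Gm17750 were also among the 15 highest, with 405 to 569 CPM and 362 to 540 CPM. Among the lowest were genes of oligodendrocytes and microglia, such as the complement gene C1qc with 0, 0, 6.80 and 8.84 CPM, against 2060.9 to 2411 CPM elsewhere.

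Mature neurons were barcodes with at least 5 UMIs of Snap25, Syt1, Nrgn and Thy1 and at most 2 of the lineage genes, with the same exclusions, and numbered 9, 50, 18 and 36. By the smallest ratio over the libraries the growth factor midkine (Mdk) came first, with 323, 675, 625 and 614 CPM against 0, 12.4, 13.2 and 4.67 CPM. The phosphatase inhibitor Ppp1r14b had 724, 739, 917 and 1308 CPM against 30.6, 33.0, 39.5 and 37.3 CPM. On the lower side the synaptic vesicle gene Sv2b had 0, 0, 6.80 and 0 CPM against 61.2, 132, 105 and 177 CPM. Cholecystokinin (Cck) had 116, 199.7, 380.5 and 92.8 CPM against 642, 1835, 2399.6 and 1260.1 CPM. Each of these genes lay on the same side in all 4 libraries, by the way they were chosen.

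Dividing barcodes, with at least 5 UMIs of the division genes, numbered 2, 6, 4 and 10, and 13 of the 22 also had 5 UMIs of the lineage genes. Red blood cell genes had a pooled level of 114441 CPM in these barcodes, so they also held red blood cell precursors. Against them the selected cells were higher in Myt1l and Grin2b (375, 502, 374 and 221 CPM of Grin2b against 0 in every library). Most of these Grin2b UMIs lay in the Nrgn-high cells, as given above. The selected cells were lower in Birc5, Spc25 and Cdc20, each with 0 UMIs in them. Since division genes were used in the rule, this last difference follows from the choice of cells.

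RNA of other cell classes was read at low levels, in part by the choice of cells, since the rule limited P2ry12, Cx3cr1, Mog, Pdgfra, Gja1, Cldn5, Ndnf, Lhx1 and Trp73 to a few UMIs per cell. The 14 microglial genes had summed levels of 103, 37.8, 88.3 and 75.1 CPM, with 13 of them detected, C1qa and C1qb at 7 UMIs each and Ccl3 at 0 UMIs. The 10 oligodendrocyte genes had 129, 129.5, 197 and 217 CPM with Mbp first, and Mag was at 0. The 7 endothelial genes had 272, 367, 347 and 318 CPM, all of it Bsg, which many cells use, while Cldn5, Flt1 and Pecam1 were at 0. The 9 astrocyte genes had 686, 367, 666 and 738 CPM, with Slc1a2 first and Aqp4 at 2 UMIs. Of 6 Cajal-Retzius genes only Lhx1 was read, with 1 UMI, and Reln and Trp73 were at 0. Red blood cell genes reached 208 CPM in Dp2Yey 2, led by Hbb-bs, against 10.8 to 20.4 CPM in the other libraries. Oligodendrocyte precursor genes had 38.8, 5.40, 13.6 and 39.8 CPM with Olig1 first and Cspg4 at 0, and ependymal genes had 25.9, 16.2, 27.2 and 4.42 CPM with Enpp2 first and Foxj1 at 0. Their part in the results below was not tested.

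The first comparison between genotypes asked whether the duplication goes with another number of such cells. They made up 1.96% of barcodes in WT 1 (exact binomial 95% interval 1.20% to 3.01%) and 2.02% in WT 2 (1.40% to 2.81%). In Dp2Yey 1 they were 1.85% (1.20% to 2.71%) and in Dp2Yey 2 also 1.85% (1.33% to 2.50%). Both Dp2Yey values lay below both WT values, but the intervals, which cover counting error only, overlapped widely. The mean was 1.85% ± 0.00247 (SD, n = 2) in Dp2Yey and 1.99% ± 0.0422 (SD, n = 2) in WT. The difference of -0.14 percentage points had p = 0.333 in a two-sided exact permutation test, and 2 against 2 libraries cannot give a p below 0.333. With immature plus mature neurons as the denominator the shares were 69.0%, 40.5%, 58.1% and 53.2%, and the difference was 0.972 points in the other direction. With barcodes thinned to 1000 UMIs it was -0.41 points, with at least 8 lineage UMIs -0.00906 and without the Nrgn-high cells -0.00225. The shares without the Nrgn-high cells were 1.86%, 1.72%, 1.77% and 1.80%. The remaining cells alone made up 1.76%, 1.25%, 1.33% and 1.53%. In both of these sets the genotypes overlapped.

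The second comparison asked which genes differed between genotypes within the selected cells, with UMIs summed per library. No gene passed: 0 of 3155 genes tested (0%) had an adjusted p under 0.01 in edgeR's quasi-likelihood test with Benjamini-Hochberg adjustment, and the smallest adjusted p was 0.248. An unadjusted p under 0.05 was found for 124 genes (3.93%), 51 (1.62%) fitted higher and 73 (2.31%) fitted lower in Dp2Yey. DESeq2 also called 0 genes, with 33 at an unadjusted p under 0.05. This fit had no block for the preparation day. With same-numbered libraries as a block 0 genes passed, and with the crossed pairing, added after the data were seen, 11 did. The fitted log2 fold changes had a median of 0.02. Without WT 2 the gene called was Tac2 (log2 fold change -3.30). Without Dp2Yey 2 Ncald (-5.23), Mef2c (-3.24) and Stxbp6 (-4.45) were called, genes chosen after their values were seen. Each of these fits leaves a genotype with a single library, assumed to vary like the others.

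The 5 genes with the smallest p among those higher in both Dp2Yey libraries were Sumo3, Hmgb2, Thrsp, Mest and Plpp3. By this separation alone 15.8% of the genes tested were higher and 13.9% lower, so it is common with 2 against 2 libraries. The test took only genes with enough counts in at least 2 libraries. All of the 5 but Hmgb2 met this filter only with their Dp2Yey values, so their fold changes are descriptions. Sumo3 encodes a small ubiquitin-like modifier that is attached to other proteins, and lies inside the duplicated segment at chromosome 10, 77606097 to 77618331 (GRCm38). It had 5, 11, 38 and 52 UMIs, or 64.7, 59.4, 258 and 230 CPM. Both Dp2Yey libraries were far above both WT libraries, and no cell held more than 9 of these UMIs. The means were 244 ± 20.1 CPM (SD, n = 2) in Dp2Yey and 62.0 ± 3.75 CPM (SD, n = 2) in WT. The log2 fold change was 1.97 (SE 0.39) with an adjusted p of 0.248 in edgeR's quasi-likelihood test with Benjamini-Hochberg adjustment. In all other barcodes Sumo3 had 49.9, 58.8, 73.0 and 86.9 CPM. Gm49325, which overlaps Sumo3 on the same strand, had 0 UMIs, and reads of the shared stretch cannot be told apart.

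Hmgb2, a chromatin protein abundant in progenitors, had 285, 254, 720.3 and 535 CPM, with 71 of its 106 UMIs in Dp2Yey 1 from 1 cell. Without the top cell of each library it had 208, 147, 259 and 426 CPM, and Dp2Yey was still higher. Plpp3, a lipid phosphatase of stem cells and astrocytes, had 51.7, 21.6, 109 and 115 CPM. Thrsp had 77.6, 27.0, 122 and 177 CPM. Mest, an imprinted gene of the hydrolase family, had 1, 0, 11 and 16 UMIs. Its summed UMIs gave a ratio of 19.0 with an exact counting interval of 3.13 to 777, set by the 1 UMI in WT. The log2 fold changes were 1.22 (SE 0.32) for Hmgb2, 1.81 (SE 0.58) for Plpp3 and 1.77 (SE 0.53) for Thrsp, with adjusted p of 0.495, 0.760 and 0.680 in edgeR's quasi-likelihood test with Benjamini-Hochberg adjustment. None passed the threshold. Without WT 2 the log2 fold change was 1.08 for Plpp3, 0.94 for Thrsp and 2.39 for Mest, against 3.96 for Mest with all libraries. Without WT 1 it was 2.36 for Plpp3, 2.49 for Thrsp and 6.77 for Mest. WT 2, with 0 UMIs of Mest, was then the only WT library, so 6.77 is no exact fold change. With glial and vessel genes at 0 the log2 fold change was 1.03 for Thrsp and 1.81 for Plpp3.

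The 5 genes with the smallest p among those lower in both Dp2Yey libraries were Camk2n1, Rgs7bp, Kbtbd11, Wipf3 and Rasl10a. Camk2n1, an inhibitor of the kinase CaMKII, had 375, 739, 136 and 172 CPM. The log2 fold change was -1.88 (SE 0.37) with an adjusted p of 0.248 in edgeR's quasi-likelihood test with Benjamini-Hochberg adjustment, the same adjusted p as for the other 4. Rgs7bp, which anchors regulators of G protein signaling, had 77.6, 286, 27.2 and 35.4 CPM (-2.63, SE 0.57). Rasl10a, a small GTPase, had 129, 103, 6.80 and 13.3 CPM (-3.32, SE 0.75). The genotypes did not overlap for these genes, by the way they were chosen. All of them but Camk2n1 met the filter on low counts only with their WT values. Without WT 2 the log2 fold change was -1.29 for both Camk2n1 and Rgs7bp.

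These genes were read mostly in the Nrgn-high cells, 5 of which were in WT 2. The Nrgn-high cells held 95.6% of the 225 UMIs of Camk2n1, 76.7% of those of Kbtbd11 (55.6%, 92.1%, 50% and 42.9% by library) and all UMIs of Rgs7bp, Wipf3 and Rasl10a. Without these 8 cells, an alternative added after the data were seen, Camk2n1 had 1, 1, 4 and 4 UMIs, with both Dp2Yey libraries above both WT libraries in CPM, and the other 3 had none. Kbtbd11 then had 59.0, 26.0, 25 and 19.4 CPM. In that set 0 of 2060 genes passed edgeR's quasi-likelihood test, with 81 at an unadjusted p under 0.05.

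Sumo3 was little changed by the removal of these cells, with 73.8, 60.6, 242 and 238 CPM and a log2 fold change of 1.84 (SE 0.40). Its adjusted p was then 0.267 in edgeR's quasi-likelihood test with Benjamini-Hochberg adjustment, within a range of 0.0028 to 0.999 over all alternatives. With the Dlx-positive cells removed as well, the log2 fold change was 2.50 and the adjusted p 0.0424 in the same test, edgeR's quasi-likelihood test with Benjamini-Hochberg adjustment. Both Dp2Yey libraries lay above both WT libraries in each of these sets.

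**Figure D5:**
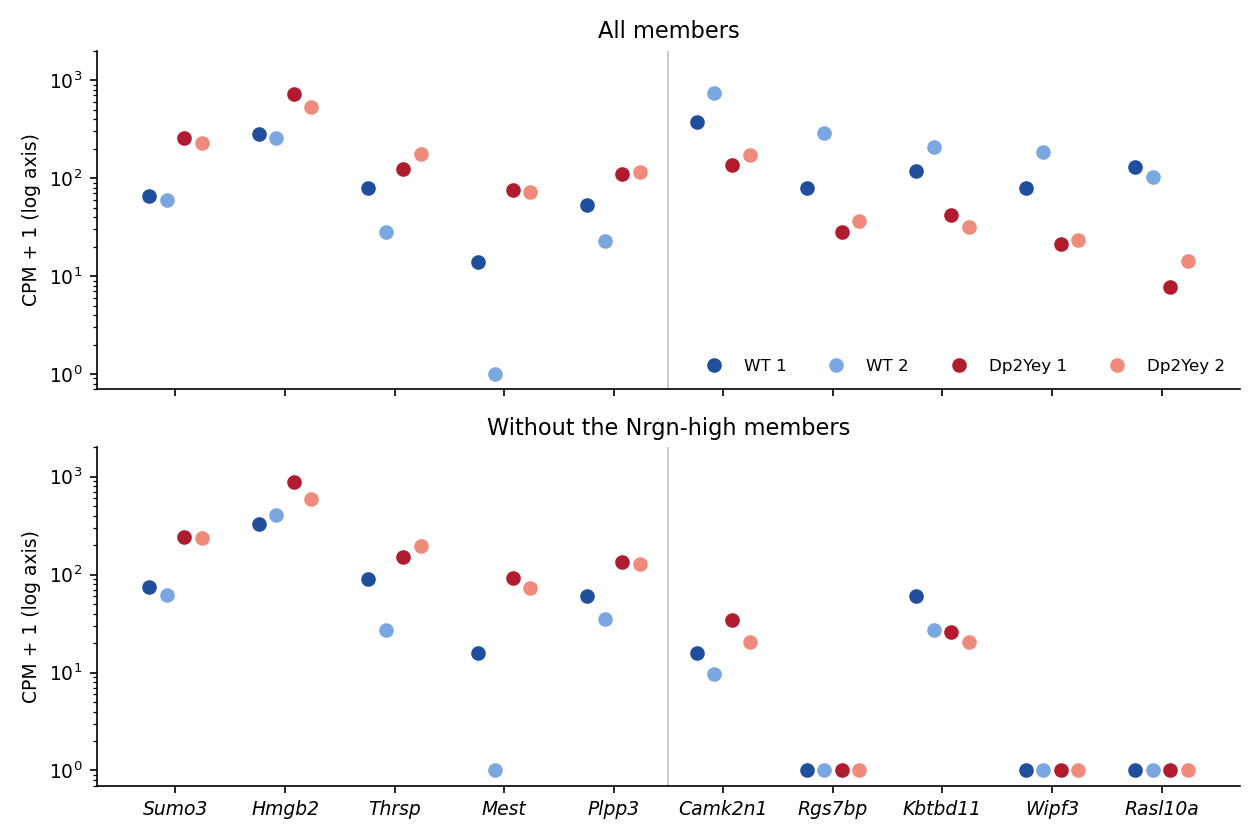
Levels (CPM plus 1, log axis) of the 5 genes with the smallest p in each direction, 1 circle per library, in all selected cells (top) and without the 8 Nrgn-high cells (bottom). Sumo3 keeps its separation, while Rgs7bp, Wipf3 and Rasl10a are at 0 UMIs without the Nrgn-high cells.

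None of the 5 markers of the label passed the test. Sox11, Neurod1 and Dcx were higher in both Dp2Yey libraries than in both WT libraries, as were 498 of all 3155 genes tested. Without the Nrgn-high cells 1 of the 5, Neurod1, was, and so were 331 of all 2060 genes tested. With the Dlx-positive cells also left out, 0 of the 5 were higher in this way and 1 was lower. Of all 1543 genes tested in that set 269 were higher and 211 lower in this way. In all selected cells the log2 fold changes were 0.40 for Sox11, 0.13 for Igfbpl1, 0.39 for Neurod1, 0.40 for Dcx and -0.07 for Calb2. Sox11, Igfbpl1 and Neurod1 chose the cells, so their values here, alone and in the lists below, depend on the rule. Of all 3155 genes tested 1645 were fitted higher and 1510 lower, and of the 2060 tested without the Nrgn-high cells 1041 were higher. Of 13 tested genes of the young neuroblast list 9 were fitted higher and 4 lower, with a median of 0.24. Of 25 transcription factors 18 were higher (median 0.27), and of 29 microtubule and growth cone genes 23 were higher (median 0.15), against a median of 0.02 over all genes tested. Of 8 radial glia-like genes 6 were higher, with a median of 0.81. Of 12 tested genes of the immature granule list 8 were higher and 4 lower, with a median of 0.09. The medians were smaller without the Nrgn-high cells. In that set 7 of 13 neuroblast genes (median 0.01) and 16 of 23 transcription factors (0.21) were higher. So were 16 of 27 microtubule genes (0.03) and 4 of 7 radial glia-like genes (0.47), but only 2 of 11 immature granule genes (-0.10). With the Dlx-positive cells also left out, 6 of 13 neuroblast genes (-0.11) and 2 of 11 immature granule genes (-0.21) were higher. There 15 of 21 transcription factors (0.14), 15 of 27 microtubule genes (0.01) and 5 of 6 radial glia-like genes (0.49) were higher, against 755 of all 1543 genes tested. No gene of these lists passed the test.

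Genes of mature neurons lay on the lower side. All 5 tested genes of the mature granule list were fitted lower in Dp2Yey, with a median log2 fold change of -1.58, and 15 of 16 glutamatergic synapse genes, with a median of -0.57. Nrgn had a log2 fold change of -1.60 (SE 0.43), and of -0.71 without WT 2. Without the Nrgn-high cells only 2 and 4 genes of the lists passed the filter, with medians of -0.29 and 0.33, and the synapse list had -0.19 over 3 genes with the Dlx-positive cells also left out. Too few genes were left to give the lists a direction. No gene of either list passed the test in any of these sets of cells.

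Tac2, the precursor of neurokinin B, had 608, 86.4, 74.7 and 53.0 CPM, highest in WT 1. Of the 47 UMIs in WT 1, 34 came from 1 cell, and outside that cell WT 1 had 180.3 CPM. Its log2 fold change was -2.27 (SE 0.69), with an adjusted p of 0.680 in edgeR's quasi-likelihood test with Benjamini-Hochberg adjustment. Tac2 was called with no filter on low counts (-2.23, adjusted p 0.00277) and with at least 8 lineage UMIs (-2.13, 0.00624). With the crossed pairing it was also called (-2.22, 0.00014). Its adjusted p was 0.9998 when the Dlx-positive cells were left out. All of these come from edgeR's quasi-likelihood test with Benjamini-Hochberg adjustment. Without WT 2 the log2 fold change was -3.30. That fit leaves WT 1 as the lone WT library, assumed to vary like the others. Without WT 1 the log2 fold change of Tac2 was -0.45.

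The genes that Dp2Yey mice carry in an extra copy were read as a group. The duplicated stretch runs from Prmt2 through Pdxk, at chromosome 10, 76207222 to 78464975 (GRCm38), and holds 62 protein-coding genes in the annotation, of which 61 are in the count tables and 27 had a UMI in the selected cells. Summed over these 27 genes the level was 686, 831, 1638 and 1269 CPM. Both Dp2Yey libraries lay above both WT libraries, with means of 1453 ± 261 CPM (SD, n = 2) and 758 ± 103 CPM (SD, n = 2), a ratio of 1.92. Without Sumo3 the ratio was 1.74, and over all other barcodes it was 1.56.

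Gene by gene, 23 of the 27 had a higher mean in Dp2Yey (85.2%), against 54.1% of all 13266 genes with a UMI. In 13 of them (48.1%) both Dp2Yey values lay above both WT values, against 15.7% of all genes with a UMI. Only 5 passed the filter on low counts. Rrp1, a factor of ribosome assembly, had 116, 178, 353 and 261 CPM, Prmt2, an arginine methyltransferase, 38.8, 54.0, 136 and 92.8 CPM, and Agpat3, an enzyme of phospholipid synthesis, 25.9, 43.2, 109 and 75.1 CPM. The protease inhibitor Cstb had 103, 81.0, 129 and 111 CPM, the least separated of the 5. A gene could pass this filter by its level in a single genotype, and Sumo3, Prmt2 and Agpat3 passed only with their Dp2Yey values. The median log2 fold change over the 5 was 1.19, against 0.02 over all genes tested. It is a description only, since the filter let in genes by their Dp2Yey level. Without the filter the median was 0.67 over the 27 genes, against 0.07 over all genes with a UMI. For the filtered genes it was 0.63 without WT 1, where 9 genes passed the filter.

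The last comparison asked whether the genotype effect differed between the selected cells and the mature neurons, with the library as a block. In edgeR's quasi-likelihood test with Benjamini-Hochberg adjustment 0 of 4436 genes (0%) passed, with 143 (3.22%) at an unadjusted p under 0.05 and a smallest adjusted p of 0.544. Sumo3 had 91.7, 57.7, 119 and 126 CPM in the mature neurons, and the difference of its log2 fold changes was 1.18 (SE 0.72). The genotype effect on Sumo3 was thus not shown to differ between the selected cells, which include the Nrgn-high cells, and the mature neurons. Camk2n1 had 764, 1246, 2255 and 1335 CPM in the mature neurons, with a difference of -2.55 (SE 0.62), and Rgs7bp had one of -2.72 (SE 0.64). In the selected cells 95.6% of the UMIs of Camk2n1 and all of those of Rgs7bp lay in the Nrgn-high cells.

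Each library left out moved the count of this comparison from 0, in genes chosen after their values were seen. The genes called were Cnr1, Sema3c, Serpini1 and Tac2 without WT 1, and Cd9, Pf4 and S100a10 without WT 2. They were Cd9 without Dp2Yey 1, and Camk2n1 and Fos without Dp2Yey 2. Each of these fits leaves a genotype with a single library, assumed to vary like the others. Cd9, a membrane tetraspanin, had 349, 119, 217 and 274 CPM in the selected cells and 1070.2, 8.25, 13.2 and 0 CPM in the mature neurons, of which WT 1 held 9. Its value thus rested on the mature neurons of WT 1, and its part in the result was not tested.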

How the data were processed

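The authors deposited UMI counts per gene and barcode from Cell Ranger 3.0.2 on a custom mm10 reference (GRCm38), for 1 hippocampal library from each of 4 mice, with 31055 genes and at least 500 UMIs per barcode. Cell filters beyond 200 genes were not applied. UMIs of the selected cells were summed per library and tested with edgeR 4.0.16 (TMM, filterByExpr, quasi-likelihood fit, no block) in R 4.3.3, with Benjamini-Hochberg adjustment over all genes tested and a threshold of 0.01. DESeq2 1.42.0 was an alternative. Others were RLE factors, no filter on low counts, stricter rules, thinned sums, a replicate block and each library left out. Shares, thinning and levels were computed with Python 3.11.15 and scipy 1.17.1, and doublets were called with Scrublet in scanpy 1.11.5 and kept. Positions come from GENCODE M21. The tests were tried on simulated data. Named genes are those of the rule, the 5 most abundant of each list, the 5 with the smallest p in each direction among genes without overlap, the tested segment genes and the highest and lowest ratios. The members and lists were chosen with earlier results of these data known. The other experiments of the study were not analysed here.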

Additional observations from a re-analysis of the deposited data

How the results depend on the processing

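For the genotype comparison of the selected cells, where 0 genes passed, the result was stronger under several alternatives: 7 genes passed with no filter on low counts, 23 with at least 8 UMIs of the lineage genes, and 4 with sums thinned to the smallest library. These were 7 lower, 22 lower and 1 higher, and 3 lower (Camk2n1, Nrgn and Olfm1) and 1 higher (Sumo3), genes chosen after their values were seen. Of the 22 lower genes 19 had most of their UMIs in Nrgn-high cells, of which the stricter rule kept 1 in each WT library and none in Dp2Yey. With the replicate number as a block 0 genes passed, with 88 at an unadjusted p under 0.05 in edgeR's test. The deviations of same-numbered libraries had a correlation of -0.12 over 3155 genes, and the crossed pairing, added after seeing the data, gave 11 calls, 1 higher and 10 lower. Leaving out 1 library gave 0 to 3 calls, the most without Dp2Yey 2.

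The segment's median log2 fold change of 1.19 rested on the genes that passed the filter on low counts. It moved to 0.67 with no filter and 0.91 with at least 8 lineage UMIs, and stayed at 1.16 with the replicate block. It was 0.63 (without WT 1) to 1.41 (without WT 2) with 1 library left out. For the comparison with mature neurons the count of 0 was also stronger: 1 gene passed with no filter (Cd9), 12 with at least 8 lineage UMIs (1 higher, 11 lower), 1 with glial and vessel genes at 0 (Psd3), and 2 (Cd9 and Cnr1) without the Nrgn-high cells, with or without the Dlx-positive cells, and 1 to 4 with 1 library left out, the most without WT 1. The share differed by -0.17 to -0.11 points with 1 library left out and reversed to 0.972 with neurons as the denominator, and it was -0.41 to -0.00225 under the other alternatives, the lowest with barcodes thinned to 1000 UMIs. Of 179 values of named genes under alternatives 160 stayed on their side of the threshold and 19 crossed it, with 3 of them for Sumo3. The cause was not tested.

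With 2 libraries per genotype and 77309 UMIs in the smallest sum, a count of 0 does not show that no gene differs. Intervals and floors cover counting error only. A fit with a library left out leaves its genotype with a single library, so its calls rest on the spread of the other libraries. The rule counts UMIs per cell, so deeper cells meet it more easily, and the Nrgn-high cells were the deepest. Free RNA in droplets was not estimated. Which libraries share a preparation day cannot be told from the counts.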

Other observations

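Galanin (Gal), a neuropeptide, had 38.8, 16.2, 34.0 and 13.3 CPM in the selected cells of WT 1, WT 2, Dp2Yey 1 and Dp2Yey 2. Its 14 UMIs lay in 10 cells, all of them remaining cells, against 0 of 2623 microglia and at most 0.304 CPM in the other barcodes. Sst, Penk and Npy were each read in 1 cell only. Tac2 was read in 24 cells, all remaining cells, while 122 of the 123 UMIs of Cck lay in Nrgn-high cells. The granin Chgb was read in all kinds, with 39 UMIs in Nrgn-high, 35 in remaining and 4 in Dlx-positive cells. These kinds were chosen after their values were seen.

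Of the Notch pathway, Hes6, a transcription factor that favours differentiation, had 168, 119, 74.7 and 172 CPM and was seen in 49 cells (40.8%, microglia 6.52%), and in 24.1% of thinned cells (microglia 4.11%). The ligand Dll3 was seen in 11 cells (9.17%) and in 0 of 2623 microglia. Hes5, a target of the pathway, had 116, 16.2, 0 and 8.84 CPM, highest in WT 1, with 14 UMIs in 6 cells.

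Of the immediate early genes, which respond to activity and to dissociation, Fos, Jun and Egr1 were below the other barcodes, which include many microglia, in every library. They were above the pooled mature neurons, which had 37.2 CPM of Fos, 199.9 CPM of Jun and 74.3 CPM of Egr1. Ier2, with 776, 216, 387 and 636 CPM, was above them in WT 1, at 535 CPM. Fos had 1475, 464, 612 and 1167 CPM and was seen in 53.3% of the selected cells and 72.2% of microglia. Jun had 285, 254, 245 and 486 CPM, and Egr1 had 996, 621, 734 and 818 CPM. For Fos the highest value was in WT 1 and the lowest in WT 2, so the genotypes overlapped. Their part in the results was not tested.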
